A study of Mus musculus with 10 samples.

Results

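The 5 genes described here, Cd93, Sox4, Myb, Vpreb3 and Cd24a, are known for their expression in immature and transitional B cells. They were chosen by symbol, and all 5 of 5 were found through their Entrez identifiers among the 9690 genes of a table of mRNA per cell in sorted mouse spleen B cells. The study compared unstimulated marginal zone B cells (MZB) and follicular B cells (FoB) with and without LSD1, the lysine demethylase encoded by Kdm1a. The groups were knockout MZB (2 libraries), wild-type MZB (3 libraries), knockout FoB (3 libraries) and wild-type FoB (2 libraries). All came from female C57BL/6J mice and each library was made from RNA of 50000 sorted cells. Both cell types were gated as B220+ and as negative for Thy1.1, F4/80, CD11b, GL7 and CD93. MZB were then taken as CD23-, CD21hi and CD1d+, and FoB as CD23+, CD21mid and CD1d-. The gate on CD93 removed cells carrying the protein product of 1 of the 5 genes in every group. The sources used here name neither the age of the mice nor the Cre or promoter behind the deletion. The labels do not tie libraries to animals, and the p-values below cover library-to-library spread alone, part of which may be technical.

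B cells leave the bone marrow as immature cells with a newly assembled antigen receptor, pass through transitional stages in the spleen and settle as follicular or marginal zone B cells. Cd93 encodes a C-type lectin-like glycoprotein that marks immature and transitional B cells and is lost on maturation. Cd24a encodes heat-stable antigen, a small lipid-anchored glycoprotein that is high on immature and transitional cells and stays higher on marginal zone than on follicular B cells. Sox4 is a high-mobility-group transcription factor needed for early B cell development. Myb is a transcription factor of haematopoietic progenitors needed for the pro-B to pre-B transition. Vpreb3 is a relative of the surrogate light chain protein VpreB that associates with newly made immunoglobulin chains before the receptor reaches the surface.

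In the mm10 build, Cd93 (Entrez 17064) lies at chr2:148436651-148443535 and Sox4 (20677) at chr13:28948919-28953699. Chromosome 10 holds the other three, Myb (17863) at chr10:21124930-21160984, Vpreb3 (22364) at chr10:75943024-75949657 and Cd24a (12484) at chr10:43579169-43584265. Sox4 overlaps the long noncoding gene Gm46405 and Vpreb3 the pseudogene Gm16221. The use of strand in counting is unstated, and reads of such neighbours cannot be told apart from theirs.

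Promoter sequences were matched for 3 of the 5 genes, Sox4, Myb and Vpreb3. These genes were all higher in knockout than in wild-type MZB as deposited. No sequence was matched for Cd93 or Cd24a, and the 3 matched sequences are all shown. They come from RefSeq (GRCm38.p6, the assembly of mm10) and run 5′ to 3′ on the strand of the gene. Each spans 250 bases before to 50 bases after an annotated start. For Vpreb3 the window lies inside the gene span given above, which begins at 75943024, so that start is not the outermost one. The windows cover chr13:28953650-28953949 on the minus strand for Sox4, chr10:21160935-21161234 on the minus strand for Myb and chr10:75948050-75948349 on the plus strand for Vpreb3. Capitals mark matches, on either strand, to the letters AACNG (the core recognised by Myb family proteins) and AAATC.
Sox4: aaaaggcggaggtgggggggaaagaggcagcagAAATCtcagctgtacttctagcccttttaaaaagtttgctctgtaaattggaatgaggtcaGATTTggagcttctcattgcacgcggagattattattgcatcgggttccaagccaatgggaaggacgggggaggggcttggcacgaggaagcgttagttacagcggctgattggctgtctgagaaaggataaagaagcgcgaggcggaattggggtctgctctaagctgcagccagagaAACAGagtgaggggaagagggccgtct
Myb: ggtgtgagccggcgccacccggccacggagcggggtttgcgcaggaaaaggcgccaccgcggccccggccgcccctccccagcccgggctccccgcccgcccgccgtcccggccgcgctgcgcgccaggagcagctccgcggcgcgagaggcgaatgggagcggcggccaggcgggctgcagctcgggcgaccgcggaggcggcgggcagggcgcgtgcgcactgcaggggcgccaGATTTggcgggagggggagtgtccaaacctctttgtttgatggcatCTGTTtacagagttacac
Vpreb3: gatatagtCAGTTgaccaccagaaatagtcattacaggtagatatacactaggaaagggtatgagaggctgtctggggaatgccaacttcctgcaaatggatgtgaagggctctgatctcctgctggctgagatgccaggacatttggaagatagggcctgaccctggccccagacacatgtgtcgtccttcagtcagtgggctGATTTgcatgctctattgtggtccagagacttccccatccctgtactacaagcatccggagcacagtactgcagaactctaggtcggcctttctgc
The Myb promoter was far richer in G and C than the other two. Its GC content was 75.0% with 40 CpG dinucleotides, against 52.0% with 12 for Sox4, 51.0% with 3 for Vpreb3, and medians of 52.7% and 7 over 27025 promoters of the same length. Each of the 3 held 1 match to the Myb family core, at base 274 of the Sox4, base 283 of the Myb and base 9 of the Vpreb3 sequence, counted from 1 at the 5′ end. The other motif matched at bases 34 and 95 of Sox4, base 237 of Myb and base 205 of Vpreb3, and no match shared a base with another. These letters are common, since 80.4% of all promoters hold the Myb family core and 36.1% hold the other motif. An E-box, CAGGTG, is in 20.0% of promoters and had 0 matches in these 3 windows. The same was true of CCCNNGGG, which is in 13.4% of promoters, and of a Sox-type core, AACAAT, which is in 10.9%.

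Values were used in 2 ways. The per-cell scale is the mRNA per cell as deposited, and the rescaled scale divides each library by a factor that makes most genes level between libraries. These factors ran from 0.624 for knockout FoB library 3 to 1.76 for knockout MZB library 2, because summed mRNA per cell was 105590 and 121071 in knockout MZB, 74815 to 99800 in wild-type MZB, 43562 to 55704 in knockout FoB and 45237 and 56438 in wild-type FoB. A change on the per-cell scale therefore includes any change of total mRNA, and a change on the rescaled scale is relative to most other genes. Recovered reads numbered 4161051 to 6711847 per library. The targeted gene was lower in the knockout FoB (Kdm1a 2.11 ± 0.220 mRNA per cell, SD, n = 3, against 4.96 ± 0.881 in wild-type FoB, n = 2), a log2 change of -1.12 ± 0.19 (SE, limma adjusted p 4.31e-05). In knockout MZB Kdm1a averaged 5.66 ± 0.401 mRNA per cell (n = 2), and 7.54 ± 1.05 in wild-type MZB (n = 3), which differed by -0.39 ± 0.19 on the log2 scale and missed the threshold (limma adjusted p 0.118). After rescaling the MZB change was -0.69 ± 0.06 and passed (limma adjusted p 0.000472). Summed marginal zone markers matched the sorts. These 7 genes summed to 768 to 830 mRNA per cell in knockout MZB and 604 to 779 in wild-type MZB. In knockout FoB they summed to 86.4 to 117 and in wild-type FoB to 89.7 to 112. Follicular markers (6 of 7 listed) overlapped per cell between knockout MZB (213 to 256), knockout FoB (224 to 278) and wild-type FoB (224 to 287). Wild-type MZB lay lower, at 122 to 176. After rescaling the follicular sums were 138 to 145 in knockout MZB and 107 to 120 in wild-type MZB. They were 359 to 373 in knockout FoB and 353 to 360 in wild-type FoB.

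Of the 5 genes, 4 rose in knockout relative to wild-type MZB on the per-cell scale, and 2 of them, Cd93 and Sox4, also rose relative to most other genes. The other two that rose per cell were Vpreb3 and Myb, and Cd24a was not called. A gene is called where the p-value of limma, a linear model of log2(value + 0.3) across all libraries, is below 0.05 after Benjamini-Hochberg adjustment over all genes. The spread is pooled over genes, with a prior of 86.9 degrees of freedom per cell and 4.95 rescaled. Per cell, library totals move most genes together, which this pooling does not allow for. Small per-cell p-values therefore overstate the replication that 2 or 3 libraries per group give. Over all genes, 13.3% were called higher and 0.702% lower per cell, and 3.38% higher and 1.87% lower after rescaling. The median log2 change of the 5 genes was 1.01 per cell and 0.68 rescaled, beside 0.32 and 0.02 over all genes. In libraries of a whole sorted population, more cells of a type and more RNA of a gene in each cell cannot be told apart.

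**Figure D1:**
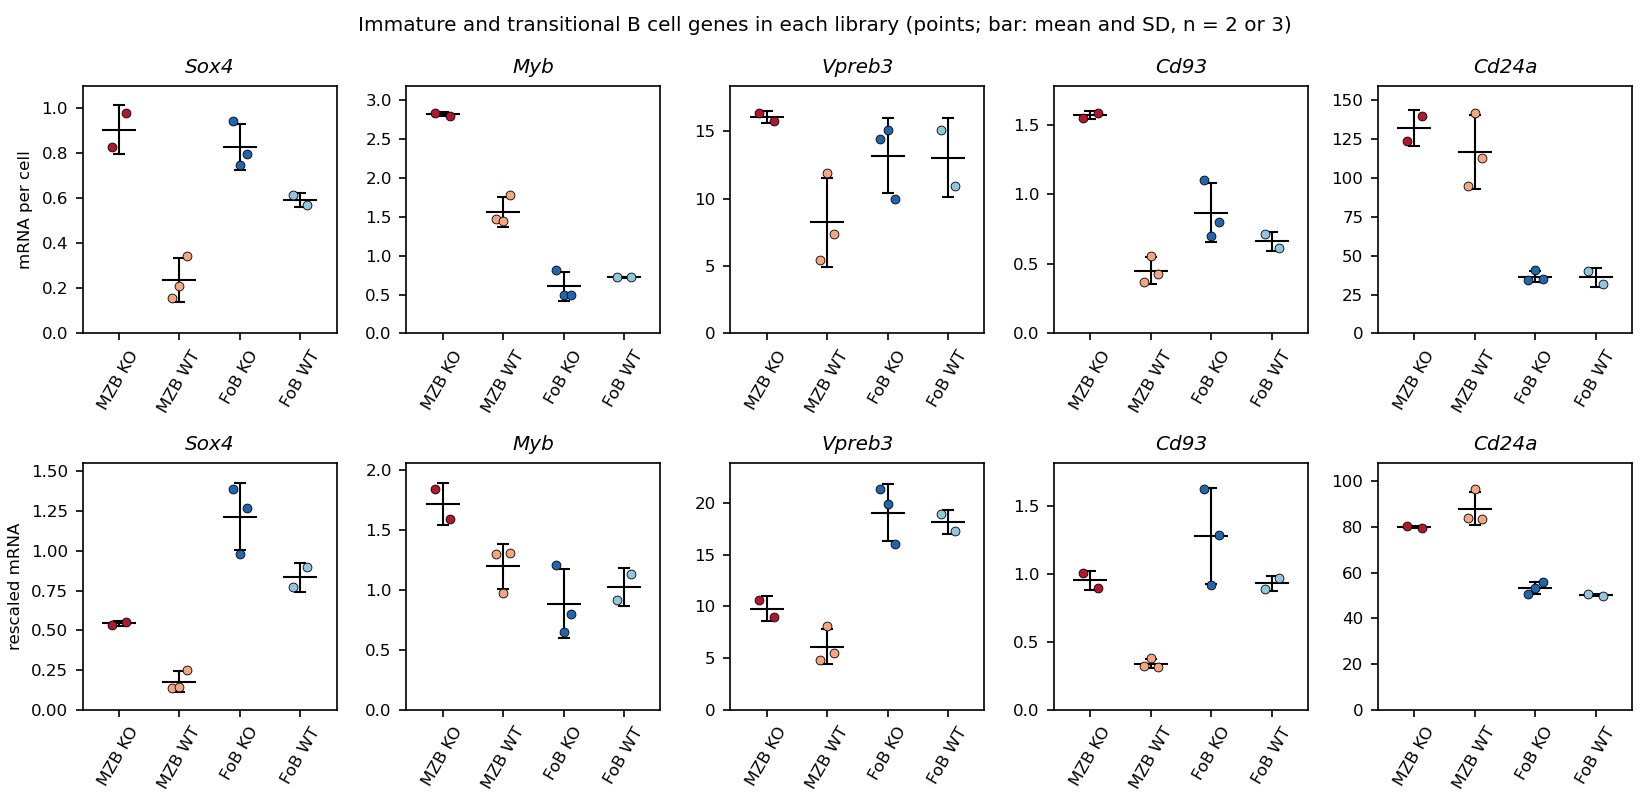
Levels of the 5 genes in every library, one column per gene, as mRNA per cell in the upper row and as rescaled values in the lower row, with a linear axis from 0 for each gene. Points are libraries and bars are group means with SD (n = 2 or 3), with knockout (KO) left of wild-type (WT) for each cell type. Cd93, Sox4, Myb and Vpreb3 lie higher in knockout than in wild-type MZB without overlap on both rows. Such a separation upward held for 56.9% of all genes per cell and 24.3% rescaled. Cd24a overlaps between knockout and wild-type MZB in the upper row.

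Cd93 was at 1.55 and 1.59 mRNA per cell in the knockout MZB libraries, against 0.367, 0.558 and 0.427 in the wild-type MZB libraries. Both knockout libraries lay above all wild-type libraries, which held for 4 of the 5 genes and for 56.9% of all genes per cell (24.3% rescaled), on 173 and 193 recovered reads against 56 to 78. The means were 1.57 ± 0.0258 (n = 2) in knockout and 0.451 ± 0.0974 (n = 3) in wild-type MZB, with a ratio of 3.48. The log2 change was 1.32 ± 0.19 per cell (SE, limma adjusted p 6.5e-08) and 0.97 ± 0.16 rescaled (limma adjusted p 0.0078). The per-cell change exceeded that of 99.5% of genes.

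Sox4 was the lowest of the 5 genes in wild-type MZB, at 0.156, 0.209 and 0.343 mRNA per cell, on only 13 to 20 reads per library. In the knockout MZB it was at 0.825 and 0.979, on 41 and 53 reads, above every wild-type library. Its log2 change was 1.18 ± 0.19 per cell (limma adjusted p 1.4e-06) and 0.83 ± 0.15 rescaled (limma adjusted p 0.0119), and the ratio of means was 3.83. The log2 values understate changes at such levels because of the 0.3 added before the log. Without either knockout MZB library the rescaled changes stayed near these sizes but missed the threshold, the lone library left being assumed to vary like the other groups. Cd93 was at 0.90 without library 1 (limma adjusted p 0.0729) and 1.01 without library 2 (limma adjusted p 0.0738), and Sox4 at 0.83 (limma adjusted p 0.0729) and 0.79 (limma adjusted p 0.124).

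Vpreb3 was at 16.4 and 15.8 mRNA per cell in knockout MZB, against 5.46, 11.9 and 7.40 in wild-type MZB. The groups did not overlap, but the wild-type libraries spread widely, with library 2 high. The log2 change was 1.01 ± 0.21 per cell (limma adjusted p 0.000361), and after rescaling it was 0.68 ± 0.18 and did not pass (limma adjusted p 0.0571). The rescaled change did pass when wild-type MZB library 2 was left out (0.89, limma adjusted p 0.00919) and without knockout FoB library 3 (0.68, limma adjusted p 0.0363). It also passed with library weights (0.74, limma adjusted p 0.0163) and with limma voom on the recovered reads (0.69, limma adjusted p 0.0182). Myb was at 2.84 and 2.80 mRNA per cell in knockout MZB, against 1.47, 1.44 and 1.78 in wild-type MZB. Again the groups did not overlap. The log2 change of Myb was 0.75 ± 0.19 per cell (limma adjusted p 0.00337) and 0.44 ± 0.18 rescaled, which did not pass (limma adjusted p 0.186). With voom the rescaled change of Myb was 0.52 and passed (limma adjusted p 0.0427), so that voom called 4 of the 5. Without knockout MZB library 2 the per-cell change of Myb was 0.76, from 1 knockout library, and missed the threshold (limma adjusted p 0.0633).

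Cd24a was by far the most abundant of the 5 genes and did not follow the others. It was at 124 and 140.1 mRNA per cell in knockout MZB, against 94.9, 142 and 113 in wild-type MZB, so that the groups overlapped. Its log2 change was 0.19 ± 0.22 per cell, with a 95% interval of -0.24 to 0.63 (limma adjusted p 0.47). After rescaling it was -0.13 ± 0.08, with an interval of -0.31 to 0.04 (limma adjusted p 0.333). Its rescaled values, 80.3 and 79.5 in knockout MZB, both lay below the 83.9, 96.5 and 83.4 in wild-type MZB, a separation downward that 21.3% of all genes shared. Between 3786 and 5435 reads per MZB library lay behind the values of Cd24a.

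In FoB none of the 5 genes was called by limma between knockout and wild-type on either scale, beside 0.712% of all genes per cell and 0.599% rescaled. At an unadjusted p below 0.05 the count was 0 of 5 per cell and 1 of 5 rescaled, and limma voom on the recovered reads also called 0. Sox4 was the only one of the 5 whose groups did not overlap, at 0.943, 0.746 and 0.794 mRNA per cell in knockout FoB, against 0.615 and 0.570 in wild-type FoB. Genes with such a separation upward made up 5.09% of all genes per cell and 15.2% rescaled. The log2 change of Sox4 was 0.33 ± 0.19 per cell (95% interval -0.04 to 0.71, limma adjusted p 1) and 0.41 ± 0.15 rescaled (limma adjusted p 0.274). Cd93 was at 1.10, 0.70 and 0.802 mRNA per cell in knockout FoB, against 0.712 and 0.614 in wild-type FoB, with a log2 change of 0.27 ± 0.19 (limma adjusted p 1). Knockout library 2 fell between the wild-type libraries, so the groups overlapped.

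The other three genes gave smaller estimates in FoB. Myb was at 0.819, 0.498 and 0.498 mRNA per cell in knockout FoB and 0.730 and 0.721 in wild-type FoB, a log2 change of -0.20 ± 0.19 that did not pass. Vpreb3 was at 14.5, 15.1 and 9.99 mRNA per cell in knockout FoB and 15.1 and 10.97 in wild-type FoB, with a log2 change of 0.01 ± 0.21. Cd24a was at 34.3, 40.5 and 34.9 mRNA per cell in knockout FoB and 40.4 and 31.7 in wild-type FoB, with a log2 change of 0.03 ± 0.22. Knockout and wild-type FoB overlapped for all 3.

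**Figure D2:**
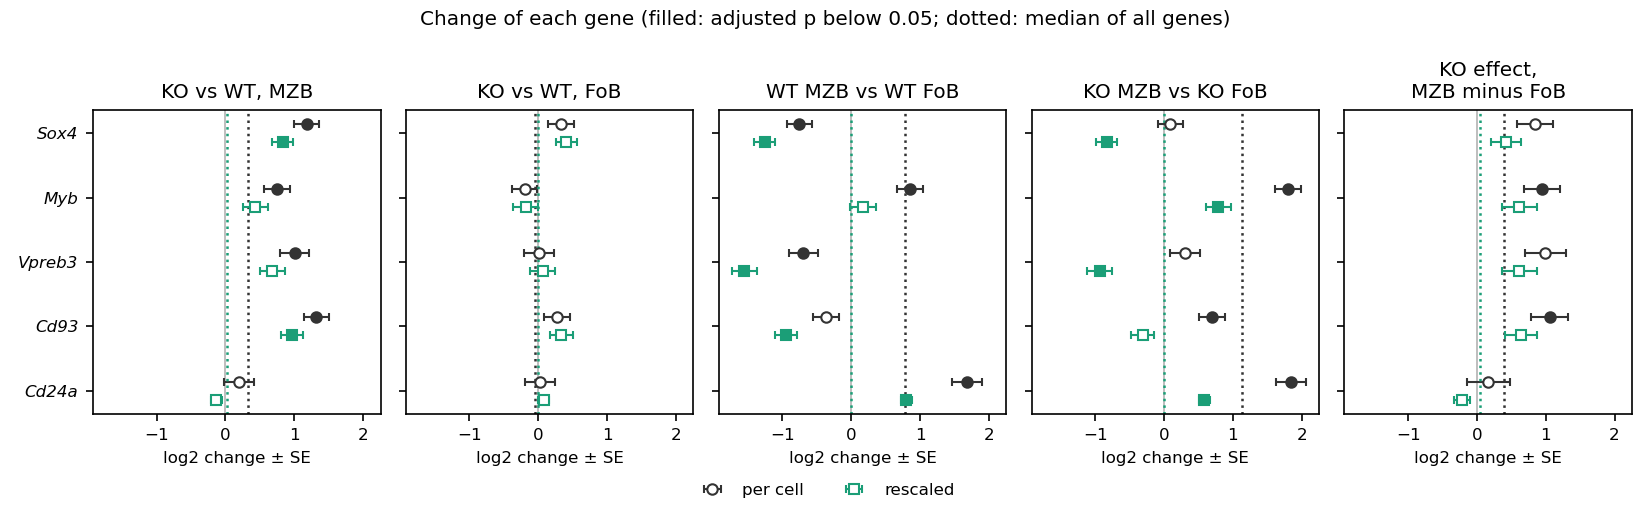
Log2 change of each of the 5 genes in the comparisons, per cell and rescaled, in 1 panel per comparison (KO, knockout; WT, wild-type). Points are limma estimates on the log2 axis, bars are ± SE, filled points have an adjusted p below 0.05 and dotted lines are medians of all genes. In MZB the knockout change of Cd93 is 1.32 per cell and 0.97 rescaled, both filled, and that of Cd24a is open on both scales.

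Whether the knockout change differed between the cell types was tested directly, as the MZB change minus the FoB change. Per cell it differed for Cd93 (1.06 ± 0.26 on the log2 scale, limma adjusted p 0.0131) and for Myb (0.95 ± 0.26, limma adjusted p 0.0315), beside 2.02% of all genes called higher and 0.32% called lower in this difference. Vpreb3 (0.997 ± 0.30, limma adjusted p 0.0525) and Sox4 (0.84 ± 0.27, limma adjusted p 0.0635) missed the threshold, and Cd24a gave 0.17 ± 0.31. After rescaling limma called 0 of the 5, beside 0.165% of all genes higher and 0.144% lower, with 3 of 5 at an unadjusted p below 0.05, and limma voom on the reads called 1, Cd93. The rescaled differences were 0.64 ± 0.23 for Cd93, 0.62 ± 0.26 for Myb, 0.62 ± 0.26 for Vpreb3, 0.42 ± 0.21 for Sox4 and -0.21 ± 0.11 for Cd24a. With library weights the per-cell differences of Cd93 (0.78, limma adjusted p 0.0946) and Myb (0.73, limma adjusted p 0.115) missed the threshold. Median-of-ratios factors, which remove the per-cell scale as rescaling does, gave 0.64 for Cd93 and 0.62 for Myb, and both missed it too. The median difference over all genes was 0.39 per cell and 0.04 rescaled. Where leaving out a library left 1 in a group, that library was assumed to vary like the others. Cd93 missed the threshold without knockout MZB library 2 (1.04, limma adjusted p 0.0676) or wild-type FoB library 1 (0.98, limma adjusted p 0.144). Myb missed it without either knockout MZB library, either wild-type FoB library, wild-type MZB library 1 or knockout FoB library 3, with differences of 0.87 to 0.96. Vpreb3 and Sox4 both passed without wild-type MZB library 2, Sox4 also without wild-type MZB library 3, and Vpreb3 also without knockout FoB library 1 or 2 or wild-type FoB library 2.

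Between wild-type MZB and wild-type FoB the 5 genes split in direction on both scales. Cd24a was 116.7 ± 23.8 mRNA per cell in wild-type MZB (n = 3) and 36.04 ± 6.19 in wild-type FoB (n = 2), a log2 difference of 1.68 ± 0.22 per cell (limma adjusted p 2.21e-10) and 0.80 ± 0.08 rescaled (limma adjusted p 1.25e-05). Sox4 was lower in wild-type MZB, with a log2 difference of -0.75 ± 0.19 per cell (limma adjusted p 0.000241) and -1.26 ± 0.15 rescaled (limma adjusted p 5.66e-05). Vpreb3 was lower too, with a log2 difference of -0.69 ± 0.21 per cell (limma adjusted p 0.00226) and -1.55 ± 0.18 rescaled (limma adjusted p 4.89e-05). The per-cell value of Vpreb3 was -0.44 without wild-type MZB library 1, and was not called without wild-type FoB library 1 (-0.47, limma adjusted p 0.0963).

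For Cd93 and Myb the scale decided the call. Cd93 was lower in wild-type MZB rescaled (-0.94 ± 0.16, limma adjusted p 0.000735), and the per-cell difference of -0.36 ± 0.19 missed the threshold (limma adjusted p 0.0625) but passed once wild-type MZB library 2 was left out (-0.47, limma adjusted p 0.0281). Myb was higher in wild-type MZB by 0.86 ± 0.19 per cell (limma adjusted p 3.3e-05), and the rescaled difference was 0.17 ± 0.18 (limma adjusted p 0.461). In this comparison 84.2% of all genes were called higher and 1.67% lower per cell, with a median of 0.78, so that the per-cell calls of Cd24a and Myb fall among the majority of genes and those of Sox4 and Vpreb3 do not. After rescaling 25.0% were called higher and 25.1% lower.

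Between knockout MZB and knockout FoB the scale set the order for Cd93, Sox4 and Vpreb3. Per cell, knockout MZB and knockout FoB gave 0.902 ± 0.109 and 0.827 ± 0.103 for Sox4 and 16.08 ± 0.444 and 13.18 ± 2.78 for Vpreb3, with log2 differences of 0.09 ± 0.19 and 0.30 ± 0.21 that did not pass. Rescaled, both were lower in knockout MZB, with log2 differences of -0.83 ± 0.15 for Sox4 (limma adjusted p 0.00146) and -0.93 ± 0.18 for Vpreb3 (limma adjusted p 0.0023). Cd93 was higher in knockout MZB per cell (0.69 ± 0.19, limma adjusted p 0.000411), and its rescaled difference had the other sign (-0.31 ± 0.16, limma adjusted p 0.168). Myb and Cd24a were higher in knockout MZB on both scales, with log2 differences of 1.81 ± 0.19 and 1.84 ± 0.22 per cell and of 0.79 ± 0.18 and 0.58 ± 0.08 rescaled. Rescaled, Cd93 was called lower without knockout FoB library 2 (-0.49, limma adjusted p 0.0184), and Myb was not called without knockout MZB library 1 (0.69, limma adjusted p 0.0667). Per cell 97.3% of genes were called higher and 0.444% lower, and rescaled 18.1% higher and 17.2% lower. The knockout and wild-type comparisons share libraries, so these values are not independent of one another.

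Ordered by mRNA per cell, Cd93 was highest in knockout MZB, followed by knockout FoB, wild-type FoB and wild-type MZB, and the order of the FoB groups lies within their spread. Sox4 had the same order, with knockout MZB and knockout FoB within their spread. Myb was highest in knockout MZB, then wild-type MZB, then wild-type FoB and knockout FoB, which overlapped. Vpreb3 was highest in knockout MZB, with both FoB groups nearly level below it and wild-type MZB lowest, overlapping the FoB. Cd24a was highest in the MZB groups, which overlapped, and lower in the FoB groups, which overlapped too. On the rescaled scale the order differed, since Cd93, Sox4 and Vpreb3 were highest in knockout FoB, at 1.28 ± 0.352, 1.21 ± 0.211 and 19.05 ± 2.74. Rescaled Cd93 in knockout MZB (0.952 ± 0.0732) was level with wild-type FoB (0.930 ± 0.0536), while rescaled Sox4 in knockout MZB (0.545 ± 0.0149) lay between wild-type FoB (0.835 ± 0.0912) and wild-type MZB (0.177 ± 0.0654). Levels between genes were compared per length, since the value that 1 read is worth fell with exon length: Cd24a exceeded 98.2% to 99.0% of genes in the 4 groups, and Sox4 only 1.3% of genes in knockout MZB and 0.2% in wild-type MZB, and 19.7% in knockout FoB and 12.2% in wild-type FoB.

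The wider set of early B-lineage and receptor assembly genes held 21 measured members of 32 listed. Rag1, Rag2, Dntt, Vpreb1, Igll1, Il7r, Kit and Cd34, which define earlier bone marrow stages, were among those not analysed here. In knockout relative to wild-type MZB, 4 of 21 were higher and 0 lower per cell (median log2 change 0.42), beside 13.3% higher and 0.702% lower over all genes (median 0.32). Rescaled, 3 of 21 were higher and 0 lower (median 0.10), beside 3.38% and 1.87% over all genes (median 0.02). Flt3, a cytokine receptor of progenitors, averaged 2.12 ± 0.289 mRNA per cell in knockout MZB and 0.350 ± 0.0903 in wild-type MZB (1.90 ± 0.19 on the log2 scale, limma adjusted p 1.03e-13). Spn, which encodes CD43 of early and B-1 cells, averaged 2.25 ± 0.686 in knockout MZB and 0.466 ± 0.0815 in wild-type MZB (1.71 ± 0.19, limma adjusted p 1.29e-11). Bach2, a repressor of plasma cell differentiation, rose by 0.92 ± 0.19 (limma adjusted p 0.000345), and Bst1, a cell-surface enzyme of precursors, by 0.53 ± 0.19 (limma adjusted p 0.0422); Bst1 was not called after rescaling. In FoB 2 of 21, Flt3 and Spn, were higher in the knockout on both scales, beside 0.712% of all genes called in either direction per cell and 0.599% rescaled. The transcription factors Ebf1 (0.28 ± 0.19), Pax5 (0.37 ± 0.22) and Tcf3 (0.51 ± 0.20) were not called in MZB. The estimate for Tcf3 was close to that of Bst1, which was called per cell. In MZB 12 of the 21 genes were at an unadjusted p below 0.05 in limma per cell and 6 rescaled.

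Relatives and partners of the 5 genes gave no call. Of 16 listed, 6 were measured, among them Mybl2, Crebbp, Ep300 and Siglecg. In knockout relative to wild-type MZB limma called 0 of these 6 on either scale, with 2 at an unadjusted p below 0.05 per cell and 0 rescaled, and voom also called 0. Siglecg, a CD24 receptor of B cells, was at 173.3 mRNA per cell in knockout MZB and 137.5 in wild-type MZB, with a change of 0.34 ± 0.22 on the log2 scale. Mybl2, a relative of Myb active in cycling cells, gave 0.24 ± 0.19.

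All 17 of 17 listed B cell maturation genes were measured. In knockout relative to wild-type MZB, 6 rose and 0 fell per cell (median 0.38), beside 13.3% and 0.702% over all genes. Rescaled, 3 rose and 4 fell (median 0.05), beside 3.38% and 1.87% over all genes. The integrin subunit Itgb7 was at 17.45 mRNA per cell in knockout MZB and 4.74 in wild-type MZB (1.82 ± 0.20, limma adjusted p 1.16e-11). Fcer2a, which encodes the follicular marker CD23, was at 33.71 in knockout MZB and 13.30 in wild-type MZB (1.36 ± 0.22, limma adjusted p 1.4e-06). Klf2, a factor of follicular B cells, was at 9.01 in knockout MZB and 4.43 in wild-type MZB (0.98 ± 0.20, limma adjusted p 0.000231), and the chemokine receptor Ccr7 at 13.76 in knockout MZB and 8.63 in wild-type MZB (0.66 ± 0.20, limma adjusted p 0.0191). These 4 genes were picked by their per-cell p, and the changes given are per cell. With only 3 of 17 called higher after rescaling, not all 4 kept the call there. The 4 genes called lower after rescaling are not named. In FoB limma called 0 of the 17 on either scale, with 1 at an unadjusted p below 0.05 per cell and 4 rescaled, and voom called 1.

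**Figure D3:**
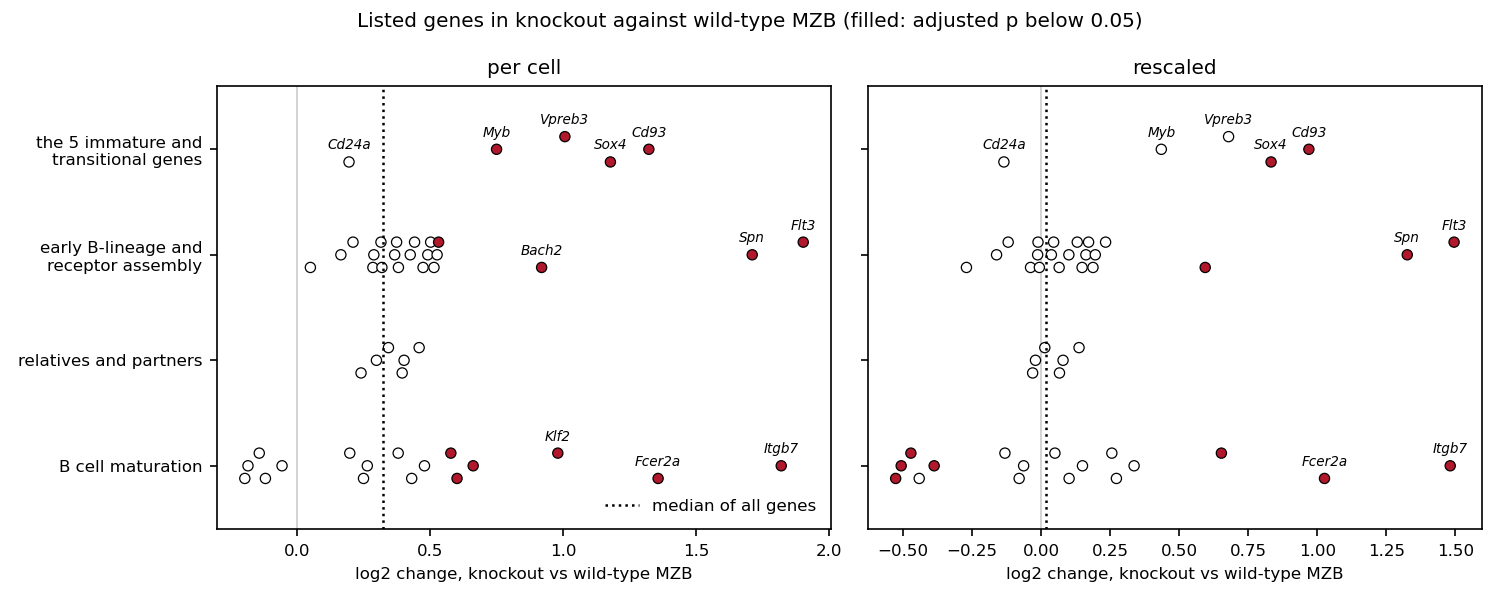
Log2 change in knockout relative to wild-type MZB for the 5 genes and the 3 context lists, per cell on the left and rescaled on the right. Each point is a gene, filled points were called by limma and the dotted line is the median of all genes; per cell, the genes called number 4 of 5, the early B-lineage genes 4 of 21, the relatives and partners 0 of 6 and the maturation genes 6 of 17.

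Most marker lists of other B cell types and of cells outside the gate were higher beside these changes in MZB, mostly on both scales. Each list of cells outside the B lineage rested on 1 or 2 measured genes, except neutrophils with 0 of 5. Whether the sorted B cells themselves carried these genes was not tested. Plasma cell and marginal zone markers were lower only after rescaling. The erythroid marker (1 of 5) was at 3.89 to 4.11 in knockout MZB and 4.15 to 5.55 in wild-type MZB. It was called lower after rescaling only. Rescaled plasma cell markers (2 of 6) summed to 25.0 to 25.5 in knockout MZB and 26.2 to 27.1 in wild-type MZB. Of them, 0 were called on either scale. Follicular markers (6 of 7 listed were measured) summed to 213 to 256 mRNA per cell in knockout MZB, against 122 to 176 in wild-type MZB, and after rescaling to 138 to 145 in knockout MZB against 107 to 120 in wild-type MZB. B-1 markers (5 of 6) summed to 19.7 to 20.02 in knockout MZB and 9.22 to 11.3 in wild-type MZB. Monocyte markers (2 of 7, Itgam and Ly6c2) summed to 4.36 to 6.88 in knockout MZB and 0.354 to 0.735 in wild-type MZB, and to 2.45 to 3.24 in knockout FoB and 0.337 to 0.879 in wild-type FoB. The T cell marker Lck (1 of 7) was at 7.39 to 8.09 in knockout MZB and 3.80 to 4.54 in wild-type MZB, and the 10 cell cycle genes summed to 65.2 to 85.7 in knockout MZB and 37.9 to 61.9 in wild-type MZB. Of these 10, 8 were called higher per cell and 0 after rescaling, where they summed to 42.3 to 48.7 in knockout MZB and 33.5 to 42.05 in wild-type MZB (5 at an unadjusted p below 0.05 in limma, 3 called by voom). Dendritic cell markers (2 of 5, Flt3 among them) summed to 19.5 to 26.4 in knockout MZB and 10.6 to 13.9 in wild-type MZB, and both were called higher on both scales. The lists share genes with those above. Itgb7, Fcer2a, Klf2 and Ccr7 are among the follicular markers and Spn is among the B-1 markers, so these sums are not independent of the earlier results. The platelet marker (1 of 4) was at 2.10 to 2.40 in knockout MZB and 0.869 to 1.06 in wild-type MZB. The endothelial marker (1 of 5) was at 33.9 to 37.3 in knockout MZB and 19.2 to 26.0 in wild-type MZB. Each was called higher on both scales. The endothelial marker was also at 14.8 to 20.0 in knockout FoB and 14.2 to 20.6 in wild-type FoB, and which cells carried it was not tested. Marginal zone markers (7 of 7), rescaled, summed to 471 to 498 in knockout MZB and 523 to 575 in wild-type MZB, with 2 called lower. In this comparison 13.3% of all genes were called higher per cell, and 3.38% higher and 1.87% lower after rescaling. Of 49 marker genes in the table, 2 (Klrd1 and Birc5) were at 0 in any library. The part of these markers in the results on Cd93, Sox4, Vpreb3 and Myb was not tested.

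**Figure D4:**
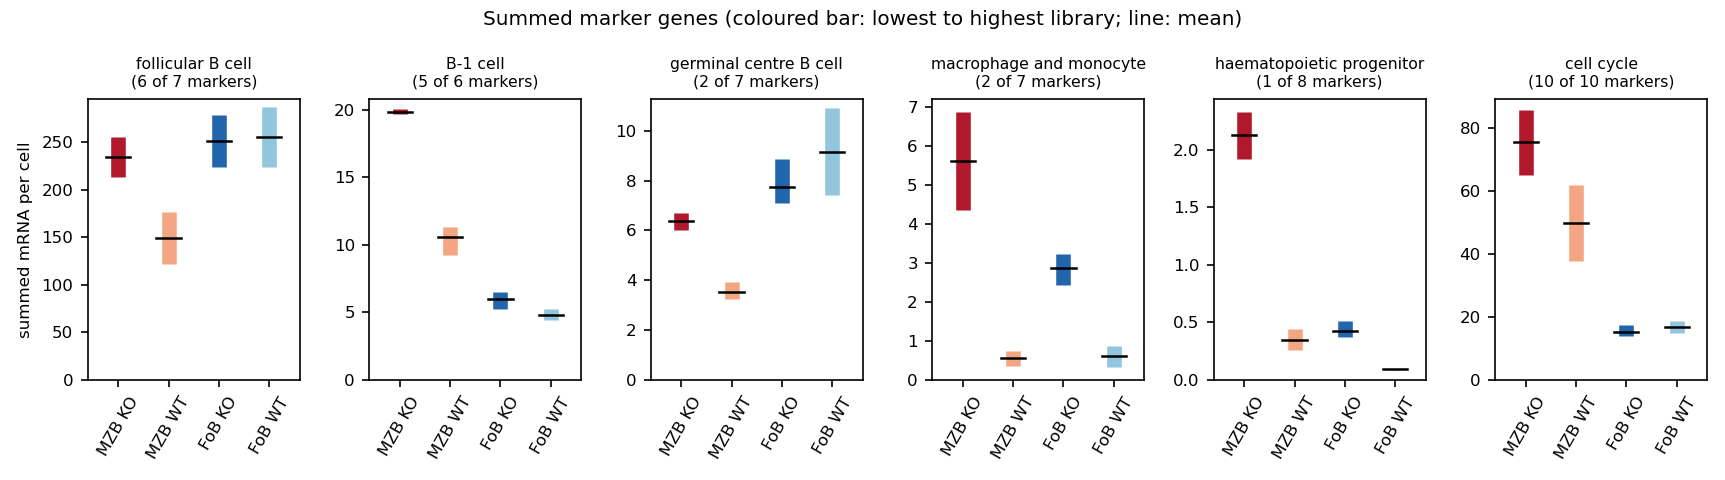
Summed mRNA per cell of marker genes, one panel per marker list with a linear axis from 0 and knockout (KO) left of wild-type (WT) for each cell type. Coloured bars run from the lowest to the highest library and lines are group means. Follicular markers are at 213 to 256 in knockout MZB and 122 to 176 in wild-type MZB.

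The genes most like each of the 5 over the 10 libraries, by Pearson correlation of log2 rescaled values among 8192 or 8193 genes, were listed as a description, since the libraries form 4 groups and share their scaling. Cd93 was closest to Gabbr1 (0.993), Cecr2 (0.978) and Clcn6 (0.970). Sox4 was closest to Rasa4 (0.985) and Lgals1 (0.977). Myb was closest to Akr1b10 (0.969), Exd2 (0.947) and Phyhd1 (0.943). Vpreb3 was closest to Fxyd5 (0.980), the adaptor gene Pik3ap1 (0.979) and Tnfrsf13c (0.979), which encodes the BAFF receptor. Cd24a was closest to Ugdh (0.993), Pdcd4 (0.993) and Zwint (0.990).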

How the data were processed

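Poly(A)-selected RNA of sorted splenic B cells was sequenced, per the labels' protocols, and groups follow the labelled cell type and LSD1 status. The authors deposited signal values, expressed as mRNA per cell, for each gene in each library. STAR and mm10 are named, per the submitters' processing notes; the counter, the gene filter and the factor from reads to molecules were not stated there. Of 9690 genes 9681 had a matching symbol, and 0 columns stayed unassigned. Value per read fell with exon length across 9530 genes (Spearman rho 0.861 with its inverse, a description across genes), so levels act as per length.

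Tests used limma 3.58.1 in R 4.3.3 (lmFit, contrasts, eBayes with trend, two-sided) on log2(value + 0.3) over all 10 libraries, with 1 coefficient per group. Genes needed 0.3 in 2 libraries, a floor that removed 0 genes. Benjamini-Hochberg adjustment ran over the whole table, with a threshold of 0.05. Rescaling used a trimmed mean of log ratios (trims 0.3 and 0.05). Whole reads were recovered for 100% of genes (largest deviation 2.9e-05 against a tolerance of 0.1 reads), and voom on them was an alternative. Fits were tested on simulated data. The genes and lists were chosen with earlier results of these data known, and other genes named are the up to 4 of each list with the smallest p among those called and the 3 most like each of the 5. Some genes that this rule or the lists hold are not reported here. Ebf1, Pax5, Tcf3, Siglecg and Mybl2 were named after their values were seen. Python 3.11.15, pandas 2.3.3 and matplotlib 3.10.9 were used.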

Additional observations from a re-analysis of the deposited data

Results flagged for a closer look

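The knockout change of Cd93 in MZB exceeded that in FoB by 1.06 on the per-cell log2 scale, and a test of that difference by limma passed (adjusted p 0.0131). That of Myb exceeded it by 0.95, and the same limma test passed (adjusted p 0.0315). On the rescaled scale neither difference passed, and with library weights neither per-cell difference passed (limma adjusted p 0.0946 for Cd93 and 0.115 for Myb).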

How the results depend on the processing

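Cd93 and Sox4 remained called higher in knockout MZB per cell under every alternative that tested them, with limma adjusted p up to 0.00799 for Cd93 and 0.0122 for Sox4, which a minimum of 1 mRNA per cell left untested. Among these alternatives, median-of-ratios factors remove the per-cell scale. With median-of-ratios factors the number of the 5 called there was 2 (Myb and Vpreb3 lost), against 4, and without 1 library 3 to 4. After rescaling 2 were called, against 1 with a minimum of 1 mRNA per cell (Sox4 not tested), 4 with voom on reads and 0 to 3 without 1 library. For the difference between cell types per cell, 2 were called, against 1 with a pseudocount of 0.1, 0 with median-of-ratios factors, 0 with library weights, 3 with a pseudocount of 1 and 3 with a minimum of 1 mRNA per cell (Vpreb3 gained in both), and 0 to 4 without 1 library; rescaled, 0 were called, against 1 with voom. Whether replicate numbers pair the libraries is not known. Rescaled deviations from the group means correlated at -0.190 to 0.187 over 13 same-numbered pairs. With 2 or 3 libraries per group such correlations cannot decide it. With a replicate block the per-cell difference was called for 0 of the 5. It was 1.003 for Cd93 (limma adjusted p 0.0947) and 0.95 for Myb (limma adjusted p 0.151).

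Signs turned in these cases. With median-of-ratios factors, which remove the per-cell scale, Cd24a was -0.14 between knockout and wild-type MZB and -0.22 in the difference between cell types, and between knockout MZB and knockout FoB Cd93 was -0.31, Sox4 -0.83 and Vpreb3 -0.93. With library weights Myb was 0.057 and Cd24a -0.041 in FoB, and Sox4 -0.020 between the knockouts. Without 1 library, Vpreb3 in FoB ranged from -0.22 to 0.24 per cell and from -0.025 to 0.18 rescaled, Cd24a in FoB from -0.15 to 0.20 per cell, and the Cd24a difference between cell types from -0.0075 to 0.34; the cause was not tested.

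Counts of called genes over the whole table ranged, per cell, from 269 to 2791 for knockout against wild-type MZB (1356 as reported) and from 30 to 744 for the difference between cell types (227), and rescaled from 60 to 1291 (509) and from 1 to 614 (30). Leaving out knockout MZB library 2 gave 269 per cell and 60 rescaled in MZB, and leaving out wild-type MZB library 2 gave 2791 per cell. Voom could not be run per cell, since reads carry no per-cell scale.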
